A study of Homo sapiens with 102 samples.

Results

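Solvent droplets are the untreated reference of the drug screen, and they were made in both screens of the series. They were found by their titles, which give DMSO as the first and as the second compound, and comprised 6 of the 102 libraries: 3 of the screen labelled dT and 3 of the screen labelled Bio. All 6 were made from K562, an established chronic myeloid leukaemia line with the BCR-ABL fusion gene, and in all 6 the cells had been held in picolitre droplets for 12 h with DMSO, the drug solvent, from both compound sources. The 3 libraries of a screen carry the run numbers 1 to 3. Another 90 libraries of the same screens had at least 1 drug in the droplet (45 per screen, 15 ordered pairs with 3 libraries each), and 6 were separate DMSO controls (3 per screen), whose libraries are not part of the drug-pair grid. K562 served as 1 cell line model, and the study calls its replicates biological. The labels do not say that the runs came from separate cultures, so that p-values measure only the spread between these libraries, which may be technical.

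In Combi-Seq each compound enters the droplet with a DNA barcode fragment. After lysis the pair of fragments is ligated, and the joined oligonucleotide, which ends in oligo-dT, primes reverse transcription at the poly(A) tail, so that the reads of a barcode pair hold the 3′ ends of the mRNAs of a small pool of cells. According to the methods, the barcode layout of the compound sources was swapped between screens. The labels do not settle which screen had which layout, and the screen cannot be told apart from any other difference in how its libraries were made. K562 cells resemble early erythroid and megakaryocytic progenitors. They are known for embryonic and fetal globins, in place of the adult beta globin, and like other rapidly dividing cells they devote much of their mRNA to ribosomal proteins.

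Because the metallothioneins carried the clearest difference between the screens, the sequence before the RefSeq start of family members is shown first. Metallothioneins are small cysteine-rich proteins that bind zinc and copper, and the transcription factor MTF1 switches their genes on through metal response elements when free zinc rises. Their genes lie in 1 cluster on chromosome 16. Capitals mark matches to the core of that element (TGCACNC or TGCGCNC, either strand). The sequences are from RefSeq promoters (GRCh38.p14, plus strand) and were kept to bases before the gene start of GENCODE release 29 or, for MT2A, to the 30 bases with the most matches, which lie after the GENCODE gene start, in a first exon that begins before the RefSeq start:
MT2A (chr16:56608408-56608437): cgcggcccGTGTGCAgagccgggTGCGCCC
MT1X (chr16:56682220-56682423): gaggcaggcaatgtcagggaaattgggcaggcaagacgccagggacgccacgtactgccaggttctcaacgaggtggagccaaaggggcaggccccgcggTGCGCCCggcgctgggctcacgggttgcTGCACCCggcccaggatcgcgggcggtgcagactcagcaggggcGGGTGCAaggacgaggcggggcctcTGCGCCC
MT1H (chr16:56669564-56669813): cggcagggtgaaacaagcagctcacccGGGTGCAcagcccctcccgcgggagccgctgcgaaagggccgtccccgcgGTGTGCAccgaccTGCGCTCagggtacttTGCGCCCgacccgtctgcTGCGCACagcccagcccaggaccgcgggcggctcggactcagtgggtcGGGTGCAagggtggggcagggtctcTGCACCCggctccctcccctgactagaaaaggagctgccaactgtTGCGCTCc

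In the 250 bases before the RefSeq start, MT2A had 7 matches, MT1X had 4 and MT1H had 8. Over 27305 promoter windows of that length, 24.7% held at least 1 match and 0.366% held 4 or more. Over the 409 windows of genes tested for a screen difference, these shares were 32.5% and 1.47%. A match is a description of the letters, and binding was not measured. MT1G is not shown.

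The solvent droplet libraries were shallow, and those of the Bio screen held fewer genes. The dT libraries had 180378, 174365 and 198316 counts in runs 1 to 3, and the Bio libraries had 114955, 147320 and 81806. All dT libraries were deeper than all Bio libraries (exact permutation test, two-sided p = 0.10, which is the smallest p that 3 libraries against 3 can give). At least 1 count was seen for 2967, 2639 and 2964 genes in the dT libraries and for 1071, 1538 and 1196 genes in the Bio libraries, a mean of 2857 ± 189 (SD, n = 3) against 1268 ± 242 (SD, n = 3), with no overlap (exact permutation p = 0.10).

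The gap remained at equal depth. When the number of genes expected in a random draw of 81806 counts, the total of the shallowest library, was computed, the dT libraries gave 2290 ± 122 genes and the Bio libraries 1140 ± 168 (SD, n = 3 each, exact permutation p = 0.10). The ratio of the means was 2.25 with all counts and 2.01 at equal depth. Genes with at least 10 counts numbered 1322 ± 36.1 in the dT and 536 ± 110 in the Bio libraries. Whether a library held more cells or more RNA per cell cannot be told apart in such pools.

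**Figure D1:**
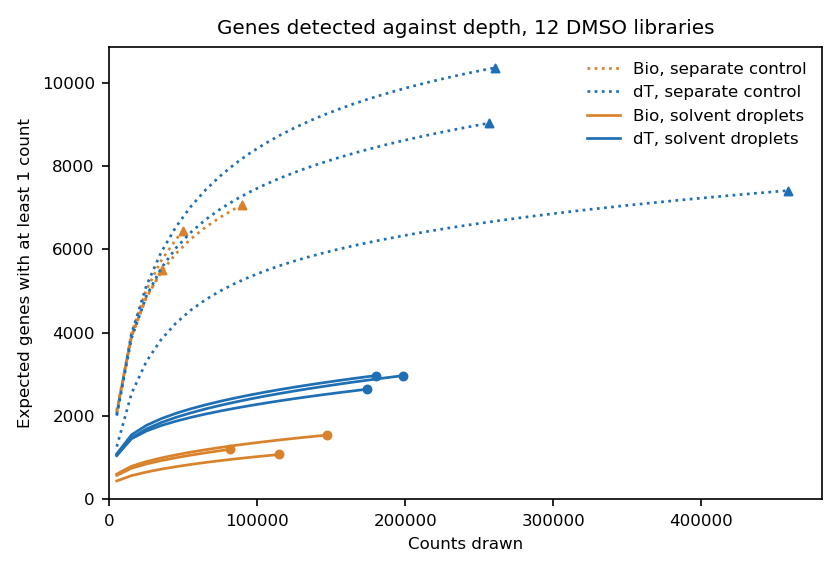
Expected number of genes with at least 1 count (vertical axis) against the counts drawn (horizontal axis) for the 6 solvent droplet libraries (solid lines) and the 6 separate DMSO controls (dotted lines); points stand at each library's full depth. The Bio solvent libraries run below the dT solvent libraries at every depth drawn, and both run below the separate controls, which reached 5501 to 10361 genes.

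The separate DMSO controls give the scale for this. With 35742 to 458945 counts they held 5501 to 10361 genes, and in a draw of 35742 counts, the total of the shallowest of the 12 DMSO libraries, they were expected to show 3865 to 5977 genes against 723 to 1941 in the solvent droplets. Solvent droplet libraries had fewer genes than the controls at the same depth in both screens. Genes with high counts were a larger share of the fewer genes detected in the solvent droplets: 26.4% ± 1.93 of the detected genes in the dT and 28.9% ± 1.03 in the Bio libraries had at least 50 counts, against 0.932% to 10.6% in the controls. Genes with a single count were common as well, at 28.0% ± 1.03 of the detected genes in the dT and 33.4% ± 1.55 in the Bio solvent libraries, against 17.8% ± 0.383 and 28.9% ± 4.95 in the controls (SD, n = 3).

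Which genes were seen changed from library to library. Of 5632 genes with a count in any dT library, 878 (15.6%) were seen in all 3 and 3572 (63.4%) in 1 only. Of 2807 genes in any Bio library, 261 (9.30%) were seen in all 3 and 2070 (73.7%) in 1 only. Counts of 100 or more in 1 library with 0 in the other 5 were found for 341 genes, 21 to 80 per library, and these held 4.61% to 9.48% of a library's counts.

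Only 219 genes were detected in all 6 libraries, but they held 47.5% to 53.7% of the counts, and the 93 genes with at least 10 counts in all 6 held 43.2% to 49.5%. Over these 93 genes, the Pearson correlation of log2 CPM (counts scaled to the same total in every library) was 0.81 to 0.88 between dT libraries, 0.72 to 0.74 between Bio libraries and 0.67 to 0.83 between screens, as a description across genes, which are not independent replicates. Replicates within the Bio screen were thus less alike than those within the dT screen.

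The untreated droplet transcriptome was dominated by the translation machinery. Of the 20 most abundant genes by mean CPM over the 6 libraries, 6 belonged to the large and 7 to the small ribosomal subunit list, 3 were mitochondrially encoded, and the others were HBG2, MT2A, HMGA1 and FTL. The 20 genes together took 29.9% of the counts. Of the 20 highest means of each screen, 15 were shared.

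RPL31, of the large subunit (chromosome 2, 101001715 to 101024032, plus strand, GRCh38), had 21355, 21426 and 26705 CPM in the dT libraries and 18242, 22393 and 40229 CPM in the Bio libraries. Its means were 23162 ± 3068 and 26955 ± 11682 CPM (SD, n = 3), and the groups overlapped, with Bio run 3 far above the others. RPL13, of the same subunit, had 23157, 25550 and 19106 CPM in the dT and 30316, 16719 and 14693 CPM in the Bio libraries, also with overlap.

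Counts from 3′ ends do not scale with transcript length in full, and per length the order changed. Divided by the longest annotated transcript, HBG2 came first with 35788 CPM per kb. MT2A had 21745 CPM per kb at rank 3, and MT-CO3, a subunit of cytochrome c oxidase, had 16420 CPM per kb at rank 4. RPL31 was at rank 7 on that scale.

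**Figure D2:**
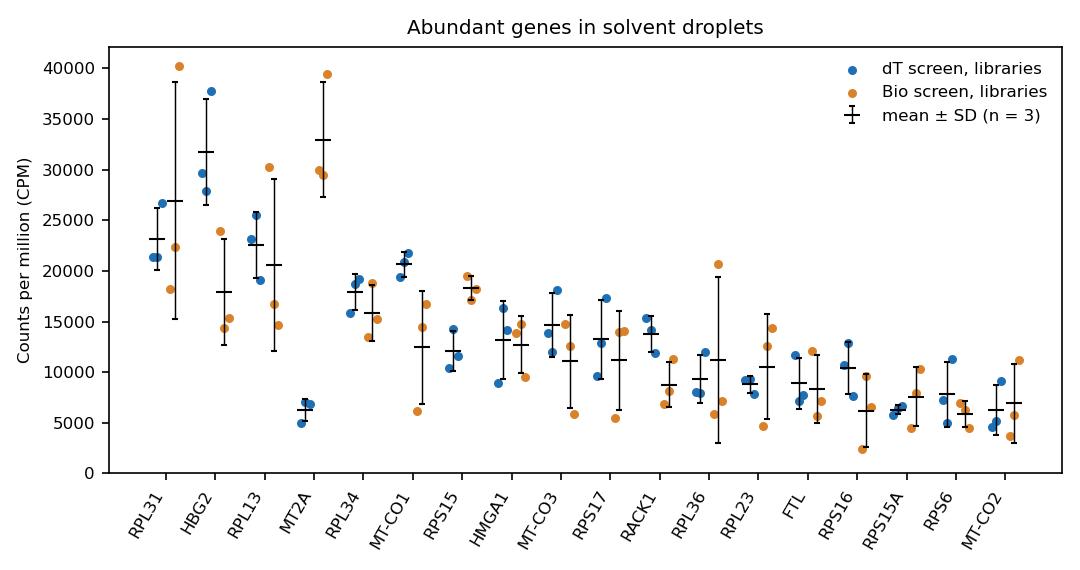
Level (CPM, vertical axis from 0) of 18 of the 20 genes with the highest mean over the 6 solvent droplet libraries, each point 1 library, blue for dT and orange for Bio, with black marks for the mean and SD of 3. MT2A stands out, with dT libraries between 5028 and 7008 CPM and Bio libraries between 29494 and 39496 CPM.

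As families, ribosomal proteins took 24.9% ± 0.853 of the counts in the dT and 26.2% ± 1.55 in the Bio libraries (SD, n = 3, exact permutation p = 0.30). Protein-coding genes of all kinds took 95.0% ± 0.861 and 95.7% ± 0.560. The large subunit list alone was 13.6% ± 0.382 in the dT and 14.98% ± 0.592 in the Bio libraries, without overlap (exact permutation p = 0.10, adjusted p = 0.60 over 30 lists). The small subunit list was 11.3% ± 0.508 against 11.2% ± 1.79. None of the 28 tested large subunit genes and none of the 25 tested small subunit genes was called by edgeR. Their median log2 fold changes, dT over Bio, of 0.18 and 0.19 stood beside a median of 0.28 over all 547 genes tested, and all 3 medians depend on the scaling: with DESeq2's size factors they were -0.12, -0.16 and -0.07.

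Mitochondrially encoded mRNAs, which encode subunits of the respiratory chain, took 5.66% ± 0.600 in the dT and 4.70% ± 1.60 in the Bio libraries. MT-CO1, the catalytic subunit of cytochrome c oxidase, led them with 19354, 20836 and 21748 CPM in the dT and 6168, 14452 and 16735 CPM in the Bio libraries. The groups did not overlap, with Bio run 1 lowest, but the difference failed the test (log2 fold change 0.99, SE 0.36, edgeR adjusted p = 0.18). Nuclear genes of the respiratory chain took 2.60% ± 0.107 and 2.46% ± 0.393. In the separate controls, mitochondrially encoded mRNAs ranged from 1.05% to 27.7% of the counts, so the solvent droplets lay inside that range.

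Chaperones were at 1.19% ± 0.207 of counts in the dT and 1.41% ± 0.188 in the Bio libraries, and glycolytic genes, led by the enolase ENO1, at 1.08% ± 0.191 and 1.16% ± 0.259. The chromatin architectural protein HMGA1, among the 20 most abundant genes, was at 13164 ± 3850 CPM in the dT and 12709 ± 2817 CPM in the Bio libraries (SD, n = 3). The iron-storage light chain FTL had 8891 CPM on average in the dT and 8315 CPM in the Bio libraries. None of these levels was separated by screen.

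**Figure D3:**
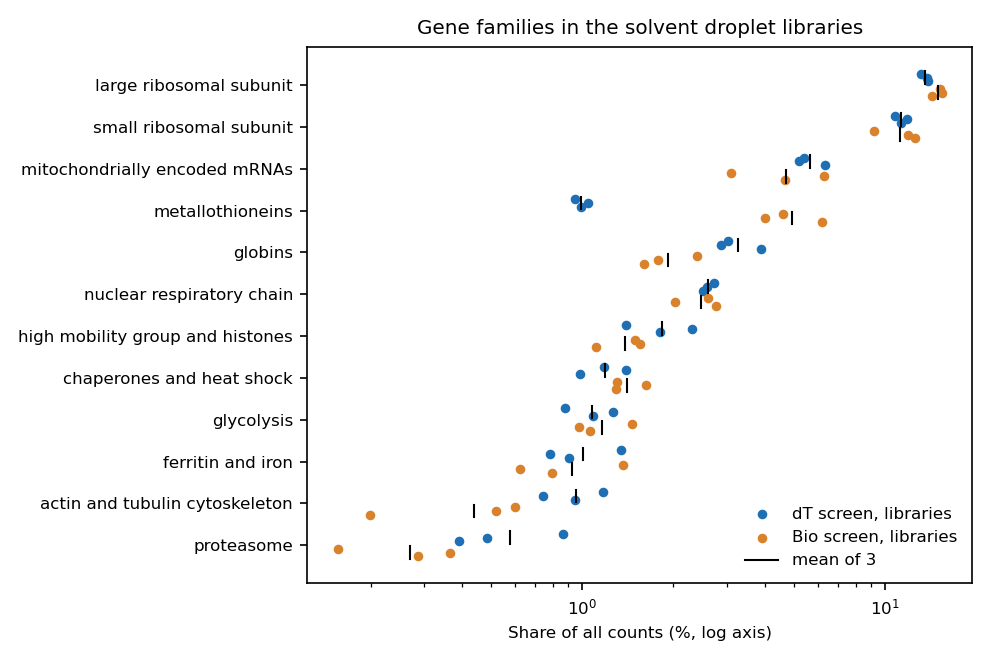
Share of all counts (percent, log axis) taken by 12 gene lists in each of the 6 solvent droplet libraries, blue for dT and orange for Bio, with black bars for the mean of 3. The metallothioneins are the farthest apart of these lists, at 0.945% to 1.05% in the dT and 4.02% to 6.17% in the Bio libraries.

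K562 identity rested on a few abundant transcripts. Globins took 3.27% ± 0.559 of the counts in the dT and 1.92% ± 0.413 in the Bio libraries (no overlap, exact permutation p = 0.10, adjusted p = 0.60 over 30 lists), and nearly all of this was HBG2, a fetal gamma globin. HBG2 (chromosome 11, minus strand) had 29704, 27907 and 37743 CPM in the dT libraries and 23905, 14397 and 15366 CPM in the Bio libraries. Every dT library was above every Bio library, with a log2 fold change of 1.09 (SE 0.22), but the edgeR adjusted p of 0.11 missed the threshold of 0.05. Because HBG1 and HBG2 are near-identical, their counts depend on how such reads were assigned: HBG1 was counted in 1 of the 6 libraries, with 8 counts.

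HBZ, the embryonic zeta globin, had 83, 128 and 83 counts in the dT and 0, 382 and 56 counts in the Bio libraries, so the groups overlapped. HBE1, the embryonic epsilon globin, had 2, 1 and 102 counts in the dT libraries and 0 in the Bio libraries. HBB, the adult beta globin, which was added after the values were seen, was at 0 in all 6, as was HBA1, and HBA2, the other adult alpha globin, had 11, 0 and 3 counts in the dT libraries and 0 in the Bio libraries.

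Many further erythroid genes were at or near 0 at this depth. GATA1, the master regulator of the erythroid lineage, had 3, 69 and 14 counts in the dT and 0 in the Bio libraries, and TFRC, the transferrin receptor, had 3 counts in dT run 3 and 0 elsewhere. Of 25 erythroid and heme genes, 15 had a count in any dT and 7 in any Bio library. A count of 0 allows up to 15.1 to 17.2 CPM in a dT library and up to 20.4 to 36.7 CPM in a Bio library (3 counts of the total, counting error only). Both partners of the fusion were hardly counted, except for ABL1 in Bio run 3: BCR had 1, 4 and 1 counts in the dT and 5, 0 and 0 in the Bio libraries, and ABL1 had 0, 2 and 1 in the dT and 0, 0 and 94 in the Bio libraries.

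Markers of other cell types were almost absent. Of 16 lymphoid, myeloid, fibroblast and epithelial markers analysed here, 13 were at 0 in all 6 libraries, among them CD3D, LYZ, COL1A1 and EPCAM. KRT19, an epithelial keratin, had 177 counts in Bio run 2 and 1 count in dT run 1. CDH1, which encodes E-cadherin, was present at a low and even level in all 6, with 22, 15 and 15 counts in the dT and 14, 18 and 10 counts in the Bio libraries. The markers together had 15 to 23 counts in a dT and 10 to 195 counts in a Bio library.

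Genes that differ between the screens were sought among 547 genes with at least 10 counts in 3 or more of the 6 libraries. Of these, 74 passed in the dT libraries alone, with no Bio library at 10 counts, and 0 passed in the Bio libraries alone, so those 74 had to differ. edgeR's quasi-likelihood test called 1 gene at an adjusted p under 0.05, MT2A, higher in Bio (0.183% of the genes tested). It called 0 genes higher in dT (0%), with 74 genes at an unadjusted p under 0.05 in either direction. DESeq2 called 72, of which 67 were higher in dT, and 66 of the 67 had no Bio library with 10 counts. The 5 that DESeq2 called higher in Bio were MT2A, MT1X, MT1G, ABHD14B and BAZ1B. Of these, ABHD14B and BAZ1B were named after their values were seen. The biological coefficient of variation, edgeR's measure of spread between replicates, was 1.12 for the dT libraries and 2.23 for the Bio libraries over the 547 genes. It was 0.58 over the 93 genes with 10 counts in all 6 solvent libraries, and 0.73 in the separate controls over the 2092 genes tested there. The values of 1.12 and 2.23 are not on equal terms, since the filter was passed more often through dT. With 10 counts in 1 Bio library only, 116 genes passed through 2 and 105 through 3 dT libraries. With 10 counts in 1 dT library only, 32 genes passed through 2 and 7 through 3 Bio libraries.

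Non-overlap of the libraries gives another view. CPM in all 3 dT libraries exceeded all 3 Bio libraries for 99 genes (18.1%), and the reverse held for 18 genes (3.29%). Among the 473 genes with at least 10 counts in a library of each screen the numbers were 25 and 18, and among the 93 with 10 counts in all 6 they were 6 and 12. The excess on the dT side was thus held by genes that were scarcely counted in the Bio screen.

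**Figure D4:**
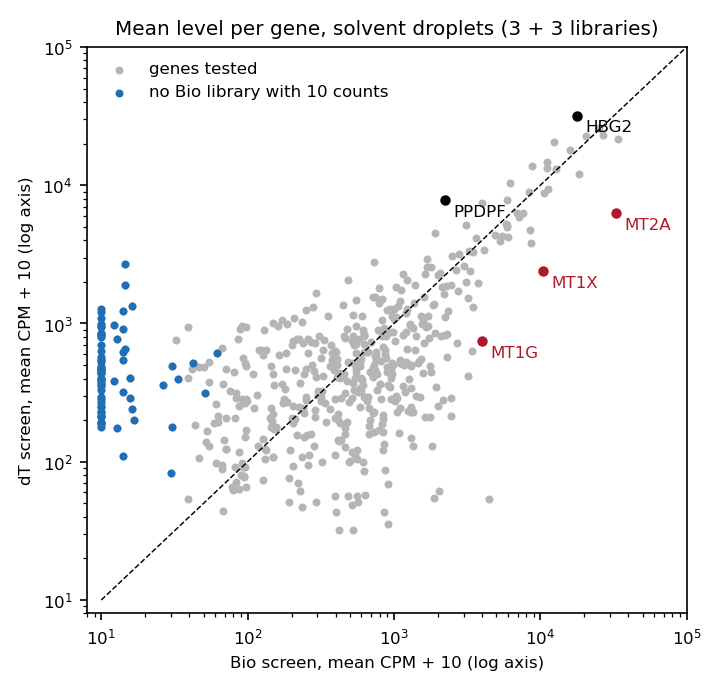
Mean level in the dT screen (vertical) against that in the Bio screen (horizontal), each as CPM + 10 on a log axis, for the 547 genes tested, with the line of equality dashed. Blue points are the 74 genes without 10 counts in any Bio library, red points MT2A, MT1X and MT1G, which lie below the line, and black points HBG2 and PPDPF, which lie above it.

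MT2A (ENSG00000125148, chromosome 16, 56608199 to 56609497, plus strand), the main metallothionein of most human cells, had 5028, 7008 and 6838 CPM in the dT libraries. In the Bio libraries it had 29951, 29494 and 39496 CPM, which made it the second most abundant gene of that screen. The means of 6291 ± 1097 and 32980 ± 5647 CPM (SD, n = 3) differed 5.24-fold, and every Bio library lay above every dT library. The fitted log2 fold change, dT over Bio, was -2.13 (SE 0.23, edgeR adjusted p = 0.00723). It rested on 907 to 1356 counts per dT and 3231 to 4345 counts per Bio library. Without Bio run 3 the log2 fold change was -1.98 and the edgeR adjusted p rose to 0.0524.

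With every library thinned to 81806 counts, MT2A was again called, and no other gene was, in each of 10 random draws. Its log2 fold change then lay between -2.24 and -2.05 (edgeR adjusted p 0.00643 to 0.0241). Depending on the draw 439 to 458 genes were tested, and non-overlap was found for 62 to 71 genes with dT above and for 16 to 18 with Bio above.

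Of the other metallothioneins, MT1X had 3310, 1474 and 2360 CPM in the dT and 5715, 8254 and 17163 CPM in the Bio libraries. All Bio libraries were above all dT libraries (4.36-fold between the means, log2 fold change -1.87, SE 0.57), but the test was missed (edgeR adjusted p = 0.11). MT1G had 687, 929 and 600 CPM in the dT and 6872, 1595 and 3496 CPM in the Bio libraries. Again the libraries did not overlap (5.40-fold between the means), and again the test was missed (log2 fold change -2.16, SE 0.96, edgeR adjusted p = 0.39).

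MT1H overlapped, with 65, 187 and 19 counts in the dT and 396, 110 and 12 counts in the Bio libraries. The remaining MT1A, MT1B, MT1E, MT1F and MT1M had at most 7 counts in a dT library, and in the Bio libraries MT1B reached 84 and MT1E 28 counts, both in run 3. MT3, the form of the nervous system, was at 0. MT1 genes are near-identical in parts, so that the split of reads among them is uncertain.

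Of the 10 metallothioneins, 4 were tested, 1 was called and 3 did not overlap with Bio above (background 3.29%). Their median log2 fold change was -1.997, against 0.28 over all genes tested. Together they took 0.945%, 1.05% and 0.989% of the counts in the dT and 4.601%, 4.02% and 6.17% in the Bio libraries. The means of 0.994% ± 0.052 and 4.93% ± 1.11 (SD, n = 3) differed 4.96-fold (exact permutation p = 0.10, adjusted p = 0.60 over 30 lists).

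The libraries with drugs, which did not enter the test, gave the same order. Within each screen they carry the same run numbers 1 to 3 as the solvent libraries. The 15 drug pairs are therefore not independent repeats of the screen comparison. MT2A had a median of 8563 CPM (5264 to 14443) in 45 dT and 29011 CPM (159 to 47218) in 45 Bio libraries. In 14 of 15 drug pairs all 3 Bio libraries were above all 3 dT libraries, and the same was found for MT1X in 14 and for MT1G in 9 of 15. Of the 547 genes, 2 (0.366%) reached 14 pairs in that direction, namely MT2A and MT1X, and 3 (0.548%) reached 9 or more. The pair that went the other way was imatinib from both sources, whose 3 Bio libraries had 17882 to 30359 counts and 438 to 472 genes. Without that pair, MT2A in the Bio screen ranged from 13861 to 47218 CPM, against 5264 to 14443 CPM in the dT screen.

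The separate DMSO controls did not show it. MT2A had 16016, 2770 and 9182 CPM in the dT and 10380, 1712 and 1366 CPM in the Bio controls. The groups overlapped, and the log2 fold change had the other sign at 1.56 (SE 1.07, edgeR adjusted p = 0.90). Among 2092 genes tested there edgeR called 0, with 139 at an unadjusted p under 0.05, and DESeq2 called 1. The difference between the screen effect in solvent droplets and that in the separate controls was -3.72 for MT2A on the log2 scale (SE 1.06, unadjusted p = 0.00201). It failed the correction over 2821 genes (edgeR adjusted p = 0.15), of which 0 were called and 793 had an unadjusted p under 0.05; DESeq2 was not run on this difference.

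**Figure D5:**
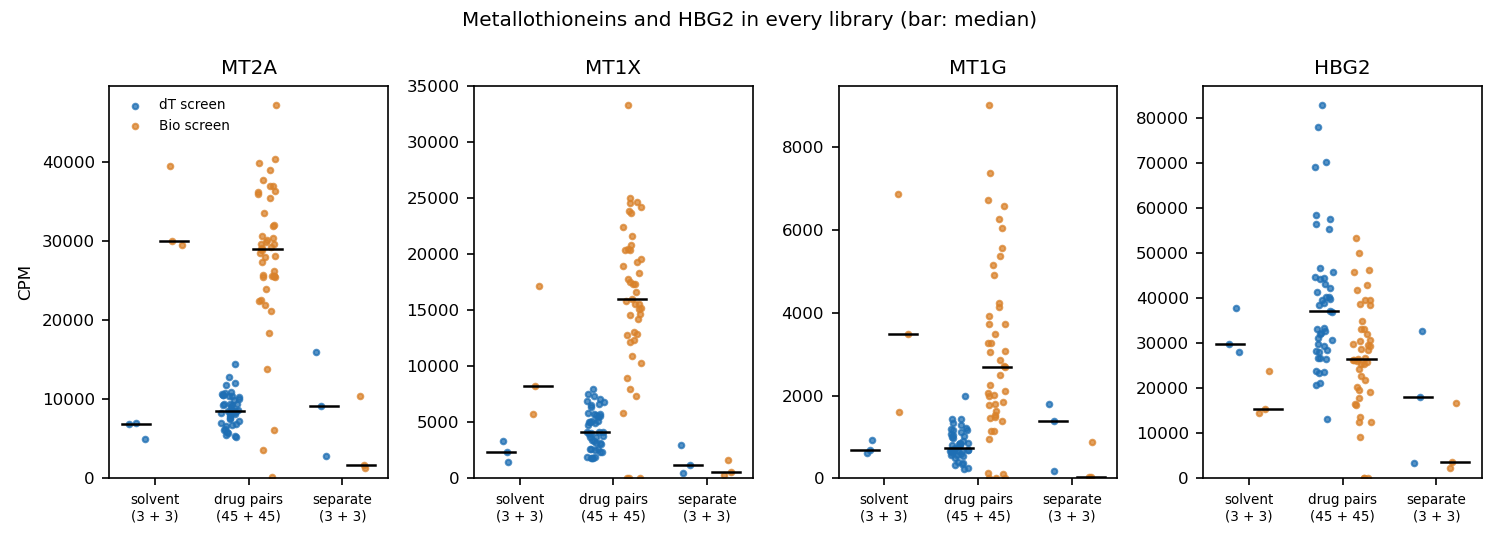
CPM (vertical axes from 0, 1 scale per gene) of MT2A, MT1X, MT1G and HBG2 in every library of the dT (blue) and Bio (orange) screens: solvent droplets, drug pairs and separate DMSO controls, with a bar at the median. For MT2A the median of the drug-pair libraries is 29011 CPM in the Bio and 8563 CPM in the dT screen, and the solvent droplets follow that order.

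HBG2 followed its solvent order less closely. The drug-pair medians were 37121 CPM in the dT and 26391 CPM in the Bio libraries, but the 3 libraries of each screen were separated in 2 of 15 pairs only, both with dT above. The first was imatinib from both sources, whose shallow Bio libraries had 32.9, 0 and 0 CPM. In the second, labelled YM115 and then imatinib, the lowest dT library had 40206 CPM and the highest Bio library 39463 CPM. Of the 547 genes, 88.1% had dT above in at least 1 pair and 10.2% in 5 or more. PPDPF, named after its values were seen, encodes a factor of pancreatic progenitor differentiation and had 8244, 5678 and 9525 CPM in the dT against 2105, 910 and 3631 CPM in the Bio solvent libraries. It did not overlap (log2 fold change 2.08, SE 0.61, edgeR adjusted p = 0.11). In the drug-pair libraries its medians were 1674 CPM in the dT and 1475 CPM in the Bio screen, and each dT solvent library was above the highest dT value there, 4793 CPM.

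Of the most abundant genes, RPS15 had 10395, 14280 and 11623 CPM in the dT and 19512, 17140 and 18226 CPM in the Bio libraries. The CPM did not overlap, but the fitted log2 fold change was small at -0.33 (SE 0.22, edgeR adjusted p = 0.82). RACK1, a scaffold protein of the small ribosomal subunit, had 13803 CPM on average in the dT and 8780 CPM in the Bio libraries, also without overlap (log2 fold change 0.92, SE 0.30, edgeR adjusted p = 0.13). GSTP1, a glutathione transferase, had 4956, 5425 and 1079 CPM in the dT and 8473, 8933 and 8557 CPM in the Bio libraries (log2 fold change -0.91, SE 0.62, edgeR adjusted p = 0.82).

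Processed pseudogenes of ribosomal proteins were counted as genes of their own, and 9 of the 93 genes with 10 counts in all 6 libraries were pseudogenes. RPL13P12, a copy of RPL13 named after its values were seen, had 4522 ± 213 CPM in the dT and 1900 ± 354 CPM in the Bio libraries (SD, n = 3, log2 fold change 1.51, SE 0.63, edgeR adjusted p = 0.32). Its dT libraries were above its Bio libraries in 10 of 15 drug pairs, which 1 of the 547 genes (0.183%) reached. RPL13 itself overlapped between the screens, at 22604 and 20576 CPM. RPS15P4, a copy of RPS15 also named after its values were seen, was the most even of the 93 genes, at 4961 to 5968 CPM, a coefficient of variation of 7.55% over the 6 libraries. Reads of a gene and its copy are alike, and their split is uncertain.

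The genes on the dT side were mostly absent from the Bio solvent libraries. Of the 547 genes, 48 had 0 counts in all 3 Bio libraries and 66 had at most 3 in each. H1-4, a linker histone, had 373, 908 and 150 counts in the dT and 0, 2 and 0 in the Bio libraries. Its mean dT level was 96.6 times a floor of 3 counts per Bio library, and that floor covers counting error only. PSMA4, a core subunit of the proteasome, had 751, 243 and 23 counts against 0, 2 and 0. Its mean dT level was 68.2 times that floor, with dT run 3 far below the other dT libraries. Both genes passed the filter through the dT libraries alone, so they had to differ, and the edgeR adjusted p was 0.11 for both.

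The following were named after their values were seen and were at 0 in all 3 Bio libraries, so they too had to differ. IK, a splicing factor, had 324, 61 and 329 counts in the dT libraries, with a mean level 45.8 times the same counting floor. PARP1, which senses DNA breaks, had 166, 146 and 120 counts, a mean of 28.4 times that floor. FASN, the fatty acid synthase, had 122, 88 and 50 counts, a mean of 17.2 times that floor. All 48 genes at 0 were detected in some of the 45 Bio libraries with drugs, in 2 to 38 of them (median 19.5).

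The actin and tubulin cytoskeleton took 0.954% ± 0.215 in the dT and 0.439% ± 0.211 in the Bio libraries, and the proteasome 0.579% ± 0.249 and 0.269% ± 0.106 (SD, n = 3, no overlap, exact permutation p = 0.10 and adjusted p = 0.60 for each). ACTB, the cytoplasmic beta actin, had 191, 109 and 227 counts in the dT and 3, 32 and 0 in the Bio libraries, and TUBA1B, an alpha tubulin named after its values were seen, had 24, 35 and 96 against 0, 0 and 0. Of the 9 tested cytoskeletal genes 3, and of the 5 tested proteasome genes 2, had passed the filter through the dT libraries alone. In the libraries with drugs the cytoskeletal medians were 0.887% and 0.851% and the proteasome medians 0.746% and 0.577%.

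In the lists other than the metallothioneins, 0 members were called by edgeR. Immediate early and stress genes took 0.283% ± 0.097 in the dT and 0.623% ± 0.290 in the Bio libraries, with overlap of the list's share. In that list ATF4, the transcription factor of the integrated stress response, had 78, 109 and 91 counts in the dT and 106, 173 and 95 in the Bio libraries. Scaled to the totals these were 432, 625 and 459 CPM against 922, 1174 and 1161 CPM, with every Bio library above every dT library (log2 fold change -0.84, SE 1.44, edgeR adjusted p = 0.99). NCL, the nucleolar protein nucleolin, had 98, 1 and 58 counts against 459, 215 and 154 (log2 fold change -2.86, SE 1.67, edgeR adjusted p = 0.72). Cell cycle genes took 0.177% ± 0.035 and 0.238% ± 0.155, with MKI67 at 37, 76 and 30 counts in the dT and 1, 445 and 1 in the Bio libraries. For the 93 genes with at least 10 counts in all 6 libraries, transcript length and GC content had Spearman correlations of -0.03 and -0.05 with the log2 fold change, across genes. For the 473 genes with 10 counts in a library of each screen they were -0.10 and 0.01.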

How the data were processed

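The authors deposited raw counts of reads per gene (24965 Ensembl identifiers), without normalisation. Per the labels' processing notes, STAR 2.4.2a and GRCh38 were used; annotation and strand setting are not given in the sources used here. Reads carry no molecular identifiers in the described protocol, so limits from counts cover counting error only. In the methods, cDNA was purified through biotin, amplified, and its 3′ ends sequenced after Tn5 fragmentation. A symbol was found for 21104 genes. Libraries held 81806 to 198316 counts in solvent droplets.

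Libraries were grouped by title. Genes with at least 10 counts in 3 or more of the 6 libraries were tested with edgeR 4.0.16 in R 4.3.3 (TMM, glmQLFit, glmQLFTest, Benjamini-Hochberg, threshold 0.05), with no covariate. The standard error was obtained from the log2 fold change and the F statistic. Alternatives were DESeq2 1.42.0, other scalings and filters, equal depth, a block by run, a fit of all 96 in-screen libraries, and leaving out each library. Two-sided exact permutation tests, python 3.11.15 with scipy 1.17.1 and numpy 2.4.6, were used for shares and gene numbers. The scripts were tested on simulated data. Replicate counts differed by a chi-square per degree of freedom of 56.7 to 144, far above sampling noise, and no pair was identical. The table held 0 columns of other samples and 0 entries naming no gene.

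Named genes were the 20 most abundant, called genes, the 3 highest members of each list, and globin, erythroid and BCR-ABL genes; others are said to be named after their values were seen. Some genes that this rule names are not reported here. The members and lists were chosen with earlier results of these data known.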

Additional observations from a re-analysis of the deposited data

How the results depend on the processing

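Of 18 alternatives, 16 called MT2A, and over all 18 its log2 fold change was -2.48 to -1.88 and its adjusted p (edgeR or DESeq2) at most 0.106. The number of genes called was 72 with DESeq2, 0 without a filter on low counts (159 genes at an unadjusted p under 0.05), 2 with a mean of at least 10 counts, and 3 with all 96 in-screen libraries. With 1 library left out it lay between 0 (without Bio run 3) and 2 (without Bio run 1, HBG2 and MT2A). The run number does not pair the libraries (correlations of deviations of -0.05 to 0.05 for equal numbers), and the fit with run as a replicate block called 2 genes, HBG2 and MT2A. The added filter, at least 10 counts in a library of each screen, was chosen after seeing the data and called 1 gene of 473. In the separate controls DESeq2, also added after seeing the data, called 1 gene against 0 with edgeR. The difference in detected genes, dT minus Bio, was 1588 with all counts, 1150 at equal depth and 785 for genes with at least 10 counts. Over all genes tested, the median log2 fold change of 0.28 became -0.07 with DESeq2's size factors and 0.03 when scaled by totals only, and the medians of the ribosomal and mitochondrial mRNA lists changed sign with it; the metallothionein median lay between -2.36 and -1.997. Of the shares of metallothioneins, globins, both ribosomal lists and mitochondrially encoded mRNAs, none moved by more than its spread between libraries. With 1 library left out, the difference in share (dT minus Bio, in percentage points) for mitochondrially encoded mRNAs went from 0.961 to 0.168 (without Bio run 1) or 1.76 (without Bio run 2). For the small ribosomal subunit it was 0.0993, turned sign without dT run 2 (-0.149) and Bio run 1 (-0.916), and reached 0.763 without Bio run 3. None of the 10 genes whose fold change was followed through these settings changed direction. All 10 were genes whose CPM did not overlap between the screens in these same libraries. Their steady direction was therefore largely set in advance and says nothing of other genes. By counting error alone, the low depth of the Bio libraries limits statements on genes below about 37 CPM. The spread between libraries limits them well above that level. A gene could have 632 counts in Bio run 2 and 0 in the other 5 libraries. The biological coefficient of variation of the Bio libraries was 2.23 over the 547 genes tested, which passed the filter more often through dT. The causes of these changes were not tested.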

Other observations

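Nuclear noncoding RNAs were few in these libraries. MALAT1, a long RNA retained in the nucleus, had 2051, 1290 and 1598 CPM in the dT and 8.70, 170 and 672 CPM in the Bio solvent libraries. The libraries did not overlap (log2 fold change 2.80, SE 1.74, edgeR adjusted p = 0.76). NEAT1, the RNA scaffold of paraspeckles, had 0, 401 and 661 CPM against 0, 115 and 367 CPM. The list of structural and nuclear noncoding RNAs took 0.260% ± 0.034 of the counts in the dT and 0.175% ± 0.143 in the Bio libraries (SD, n = 3).

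Genes from BCR-ABL to ERK took 0.175% ± 0.076 and 0.309% ± 0.186 of the counts, and MAP2K2, the kinase MEK2, was the highest of them with 554, 1743 and 212 CPM in the dT and 2088, 957 and 2677 CPM in the Bio libraries. The groups overlapped. Hypoxia genes took 0.027% ± 0.020 and 0.014% ± 0.015, and VEGFA, a hypoxia-induced growth factor, had 61.0, 292 and 0 CPM in the dT libraries and 0 in the Bio libraries. Mitochondrial ribosomal proteins took 0.813% ± 0.188 and 0.808% ± 0.316. Of the 8 tested, 2 had passed the filter through the dT libraries alone.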
